A study of Mus musculus with 6 samples.

Results

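ATF4-CHOP amino acid stress genes were followed in MS-1 cells, an immortalised mouse endothelial line from pancreatic islets that carries the SV40 large T antigen, under TGF-β2 and inhibitors of 2 microRNAs. The genes are Atf4, Ddit3, Atf3, Nupr1, Trib3, Asns, Psat1, Phgdh, Chac1 and Sesn2. They were picked by name, with their measured responses to TGF-β2 in these libraries already known, so the genes are selected on the values that follow, which are given as a description. All 10 were among the 29955 gene names of the deposited table, and all 10 were among the 11816 names whose level averaged 1 FPKM or more, the names tested. FPKM is the number of fragments scaled by transcript length and by the mapped fragments of the library, so levels can be set side by side between genes.

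The 6 libraries were total RNA, freed of ribosomal RNA, from cells given a locked nucleic acid (LNA) inhibitor and then kept for 72 h with 1 ng/ml TGF-β2 or without it. The groups were the miR-31 inhibitor with TGF-β2 and without it, the miR-27 inhibitor with TGF-β2 and without it, and the negative-control inhibitor with TGF-β2 and without it. Each group was 1 library, so no group has a spread of its own, and separate cultures are not stated. The series concerns the part of miR-31 in endothelial-to-mesenchymal transition, the change of endothelial cells toward a mesenchymal form that TGF-β can induce. Neither microRNA was measured here, and the action of the inhibitors was not checked. The labels give neither the arm of the microRNA that each inhibitor binds nor its dose.

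The integrated stress response starts when a kinase that senses missing amino acids, misfolded protein or other stress phosphorylates the translation factor eIF2α. General translation then slows while translation of the Atf4 messenger goes up, and the ATF4 protein switches on genes for amino acid synthesis, amino acid import and glutathione turnover. Under lasting stress ATF4 also induces Ddit3, which encodes CHOP, a partner that moves the program toward cell death. ATF4 binds, as a dimer with C/EBP proteins, a composite element known as the CARE or amino acid response element.

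That element was looked for in the promoters of the 10 genes, because several of the genes moved together. The genes were picked by name as ATF4-CHOP genes, so the counts of the element are a description. The search was for TGATGNAA on both strands, from 250 bases before to 50 bases after each start, in RefSeq promoters of build GRCm38.p6. All 10 genes matched a promoter, in 11 windows since Psat1 has 2. The element occurred in 5 of the 10 genes, 4 of them with it before the start, and in 3.97% of all 32851 promoter windows (2.13% of the 9920 windows of genes tested here). The cAMP response element TGACGTCA, a palindrome that does not overlap the first motif, occurred in 0 of the 10 genes, in 1.79% of all windows and in 3.18% of those of tested genes. The 250 bases before the start are shown for the 4 genes, with the match in capitals, and for Trib3 the 30 bases around its match after the start.
Chac1, chr2:119350992-119351241, plus strand: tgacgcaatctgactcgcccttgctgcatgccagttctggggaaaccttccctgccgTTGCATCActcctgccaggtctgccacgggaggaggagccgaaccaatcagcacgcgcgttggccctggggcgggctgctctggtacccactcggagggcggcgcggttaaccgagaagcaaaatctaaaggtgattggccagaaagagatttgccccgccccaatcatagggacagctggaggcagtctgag
Nupr1, chr7:126625471-126625720, minus strand: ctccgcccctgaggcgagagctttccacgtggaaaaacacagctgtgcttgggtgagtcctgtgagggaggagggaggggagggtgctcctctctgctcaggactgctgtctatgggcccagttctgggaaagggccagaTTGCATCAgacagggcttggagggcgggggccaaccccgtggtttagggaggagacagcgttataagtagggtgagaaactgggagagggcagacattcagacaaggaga
Atf3, chr1:191183334-191183583, minus strand: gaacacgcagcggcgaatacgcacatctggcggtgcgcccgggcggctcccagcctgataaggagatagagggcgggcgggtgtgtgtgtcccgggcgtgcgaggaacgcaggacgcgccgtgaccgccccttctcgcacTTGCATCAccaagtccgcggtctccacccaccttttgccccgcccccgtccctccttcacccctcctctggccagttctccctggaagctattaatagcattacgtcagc
Asns, chr6:7693210-7693459, minus strand: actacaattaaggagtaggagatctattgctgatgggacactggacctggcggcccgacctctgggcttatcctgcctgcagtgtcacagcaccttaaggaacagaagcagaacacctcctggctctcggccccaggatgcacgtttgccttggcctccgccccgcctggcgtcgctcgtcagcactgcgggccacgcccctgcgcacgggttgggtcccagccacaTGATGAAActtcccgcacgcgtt
Trib3, chr2:152344028-152344057, minus strand: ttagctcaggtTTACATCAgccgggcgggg

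The match in Chac1 starts 193 bases before the start, those in Nupr1 and Atf3 start 110 bases before it, and that in Asns starts 23 bases before it. The match in Trib3 begins at base 15 of the transcript. No match was found in these windows for Atf4, Ddit3, Psat1, Phgdh or Sesn2, which says only that these letters are not in these windows.

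The labels name miR-31 and miR-27 without an arm, so the arms and forms shown here, from the same RefSeq build, are assumed. Their seeds (bases 2 to 8, in capitals) define the sites looked for in the 10 genes.
mmu-miR-31-5p: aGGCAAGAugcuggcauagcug
mmu-miR-27a-3p: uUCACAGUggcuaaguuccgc
mmu-miR-27b-3p: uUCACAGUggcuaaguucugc
The miR-27 forms share their seed. A match to the miR-31 seed (TCTTGCC) lay in an annotated 3′ UTR (GENCODE vM21) of 1 of the 10 genes, Psat1, and of 14.0% of the 9573 tested genes with such a UTR. A match to the miR-27 seed (ACTGTGA) lay in those of Psat1, Phgdh and Sesn2, 3 of the 10, and in 18.9% of the tested genes.

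The cells showed the endothelial markers and the TGF-β response that their labels call for. All 8 endothelial markers stood at 19.9 FPKM or more in every library. Their summed level was 1476 to 1509 FPKM with TGF-β2 and 1326 to 1425 without it, but single markers moved in different directions. Emcn was at 382, 393 and 395 FPKM with TGF-β2 and the miR-31, miR-27 and negative-control inhibitors, against 230, 219 and 224 FPKM without it. Kdr was at 36.7, 35.3 and 37.2 FPKM, against 68.8, 60.8 and 62.6 FPKM. Eng was also higher with TGF-β2 in every transfection, Cdh5 and Tie1 were lower, and Pecam1, Tek and Erg differed in direction between transfections. All 8 pancreas markers were at or under 0.235 FPKM, with Prss1 and Amy2a5 at 0 throughout. Of 7 leukocyte markers 5 were under 1 FPKM in every library, Lyz2 reached 1.68 and Cd68 reached 211, and their sum was 107 to 137 FPKM with TGF-β2 and 170.2 to 212 without it. Of 6 epithelial markers 4 were under 1 FPKM, Epcam at 0, with sums of 13.6 to 17.4 FPKM with TGF-β2 and 38.8 to 54.5 FPKM without it, mostly Krt18. Of 5 fibroblast markers, Pdgfra alone passed 1 FPKM, with sums of 15.7 to 19.8 FPKM with TGF-β2 and 1.88 to 2.52 FPKM without it. The part of these shifts in the results below was not tested, and in bulk RNA fewer cells of a type and less RNA per cell cannot be told apart. Fn1, the fibronectin gene and a known TGF-β target, was at 210.4, 218 and 202 FPKM with TGF-β2 and the miR-31, miR-27 and negative-control inhibitors, against 31.1, 31.1 and 22.8 FPKM without it. The number of names at 1 FPKM or more was 11680 to 11791 per library, and fragment totals are unknown.

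With the miR-31 inhibitor, TGF-β2 went with higher stress regulators, while with the other inhibitors most of the 10 genes were lower with TGF-β2. The median response of the 10 genes, as log2(FPKM + 1) with TGF-β2 minus without, was 0.73 with the miR-31 inhibitor, -0.72 with the miR-27 inhibitor and -0.87 with the negative-control inhibitor. The medians over all genes tested were -0.03, -0.02 and -0.02. Of the 10 genes, 7 were higher with TGF-β2 under the miR-31 inhibitor, 1 (Nupr1) under the miR-27 inhibitor and 0 under the negative control, where Nupr1 turned slightly positive, at 0.01, when libraries were scaled to the same upper quartile. Of all genes tested, 45.8%, 46.7% and 47.6% were higher with TGF-β2, in the same order. Of the 6 libraries, the miR-31 one with TGF-β2 was the highest for 7 genes, and the negative-control one with TGF-β2 was the lowest for 9, all but Atf3. The shares of all genes tested with these highest and lowest libraries were not counted, so nothing is read from these counts.

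**Figure D1:**
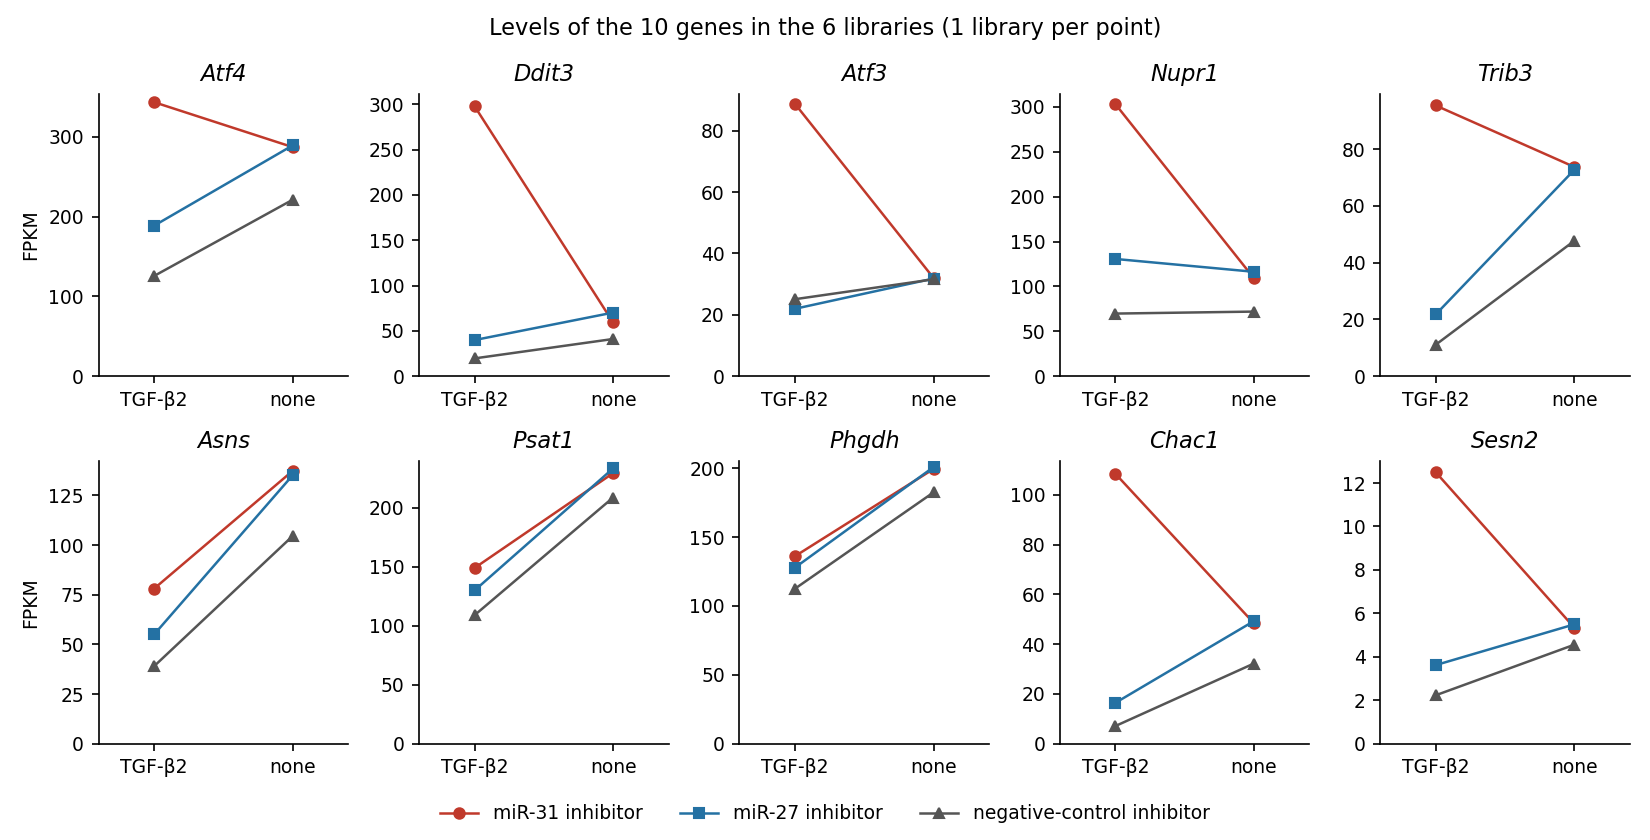
Level of each of the 10 genes in FPKM (linear axis from 0) with TGF-β2 (left) and without it (right), 1 library per point, lines joining the libraries of a transfection (red circles, miR-31 inhibitor; blue squares, miR-27 inhibitor; grey triangles, negative control). Ddit3 reached 298 FPKM with the miR-31 inhibitor and TGF-β2, and the red and blue points without TGF-β2 lie close together in every panel.

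Among the regulators, Atf4 (mm9, chr15:80085614-80087971), the transcription factor at the head of the program, was at 343 FPKM with TGF-β2 and 287 without it under the miR-31 inhibitor. It was at 189 and 289 FPKM under the miR-27 inhibitor and at 126 and 221 FPKM under the negative control, in the same order. Atf4 was the most abundant of the 10 genes in each of the 6 libraries. Its responses were 0.26, -0.61 and -0.81 with the miR-31, miR-27 and negative-control inhibitors.

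Ddit3, the gene for CHOP, was at 298 FPKM with TGF-β2 and 59.2 without it under the miR-31 inhibitor, a ratio of 5.03. It was at 39.8 and 70.1 FPKM under the miR-27 inhibitor and at 19.6 and 41.0 FPKM under the negative control. The miR-31 library with TGF-β2 lay far above the other 5, and the other inhibitors had lower values with TGF-β2 than without. The responses were 2.31, -0.80 and -1.03, and with TGF-β2 the miR-31 library was 15.2 times the negative control, against 1.44 times without TGF-β2. The deposited place of Ddit3 (mm9, chr10:126727849-126748842) is also that of Mars, a methionyl-tRNA synthetase gene, and whether counting used strand is not stated. Mars was at 46.1 and 56.9 FPKM with and without TGF-β2 under the miR-31 inhibitor, at 45.3 and 56.0 under the miR-27 inhibitor and at 39.1 and 52.8 under the negative control.

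Atf3 (mm9, chr1:192994176-193041918), a transcription factor induced in many stresses downstream of ATF4, was at 88.8 FPKM with TGF-β2 and 32.0 without it under the miR-31 inhibitor. It was at 22.0 and 31.8 FPKM under the miR-27 inhibitor and at 25.1 and 31.6 FPKM under the negative control. The 3 libraries without TGF-β2 lay between 31.6 and 32.0 FPKM, and the miR-31 library with TGF-β2 alone stood higher. Its responses were 1.44, -0.52 and -0.32.

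Nupr1 (mm9, chr7:133766760-133768984), which encodes a small stress-induced chromatin protein, was at 303 FPKM with TGF-β2 and 109 without it under the miR-31 inhibitor. It was at 131 and 116 FPKM under the miR-27 inhibitor and at 69.7 and 71.9 FPKM under the negative control. Nupr1 was the only gene of the 10 that was not lower with TGF-β2 under the miR-27 inhibitor, by a response of 0.17 beside 1.47 for miR-31 and -0.04 for the negative control (0.01 with upper-quartile scaling).

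Trib3 (mm9, chr2:152163161-152169796) encodes a pseudokinase that binds ATF4 and CHOP and dampens their activity. It was at 95.3 FPKM with TGF-β2 and 73.7 without it under the miR-31 inhibitor, at 21.7 and 72.7 FPKM under the miR-27 inhibitor and at 11.1 and 47.7 FPKM under the negative control. With TGF-β2 its level was 129% of the untreated level under the miR-31 inhibitor, 29.9% under the miR-27 inhibitor and 23.2% under the negative control. Its 3 libraries with TGF-β2 were thus spread over 11.1 to 95.3 FPKM and those without it over 47.7 to 73.7.

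The effectors Chac1 and Sesn2 had the same high library as Ddit3. Chac1 (mm9, chr2:119176978-119180062), whose product breaks down glutathione, was at 109 FPKM with TGF-β2 and 48.4 without it under the miR-31 inhibitor. It was at 16.4 and 49.3 FPKM under the miR-27 inhibitor and at 7.06 and 32.2 FPKM under the negative control. The responses of Chac1 were 1.15, -1.53 and -2.04, so its miR-31 response differed in sign from the other 2, and with TGF-β2 the miR-31 library was 15.4 times the negative control.

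Sesn2 encodes sestrin 2, which restrains the growth kinase mTORC1 when leucine is short. It was at 12.5 FPKM with TGF-β2 and 5.34 without it under the miR-31 inhibitor, at 3.62 and 5.49 FPKM under the miR-27 inhibitor and at 2.23 and 4.56 FPKM under the negative control. Sesn2 was the least abundant of the 10 genes in every library, and the order of the 6 libraries was that of Ddit3. The clone AK155592, listed at the same place (mm9, chr4:132048722-132066414), was at 2.66, 0.724 and 0.495 FPKM with TGF-β2 under the miR-31, miR-27 and negative-control inhibitors, against 0.906, 0.973 and 0.867 FPKM without it.

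The synthesis genes behaved differently, with lower levels under TGF-β2 in all 3 transfections. The enzyme of Asns (mm9, chr6:7625171-7643182) makes asparagine from aspartate. It was at 78.1 FPKM with TGF-β2 and 137 without it under the miR-31 inhibitor, at 55.0 and 135 FPKM under the miR-27 inhibitor and at 39.0 and 105 FPKM under the negative control. The level of Asns with TGF-β2 was 56.8%, 40.7% and 37.3% of the untreated level in the same order, and the groups with and without TGF-β2 did not overlap. The share of all genes tested with such a separation was not counted, so nothing is read from it here or below.

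Phgdh and Psat1 catalyse successive steps of serine synthesis from a glycolytic intermediate. Psat1 (mm9, chr19:15979622-15999515) was at 149 FPKM with TGF-β2 and 229 without it under the miR-31 inhibitor, at 130 and 233 FPKM under the miR-27 inhibitor and at 109 and 209 FPKM under the negative control. Phgdh (mm9, chr3:98117094-98143892) was at 136 and 199 FPKM under the miR-31 inhibitor, at 128 and 201 FPKM under the miR-27 inhibitor and at 112 and 182 FPKM under the negative control. In both genes all 3 libraries with TGF-β2 lay under all 3 without it, a separation whose share over all genes tested was not counted. The responses were -0.62, -0.84 and -0.93 for Psat1 and -0.55, -0.65 and -0.69 for Phgdh, smallest in size with the miR-31 inhibitor.

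**Figure D2:**
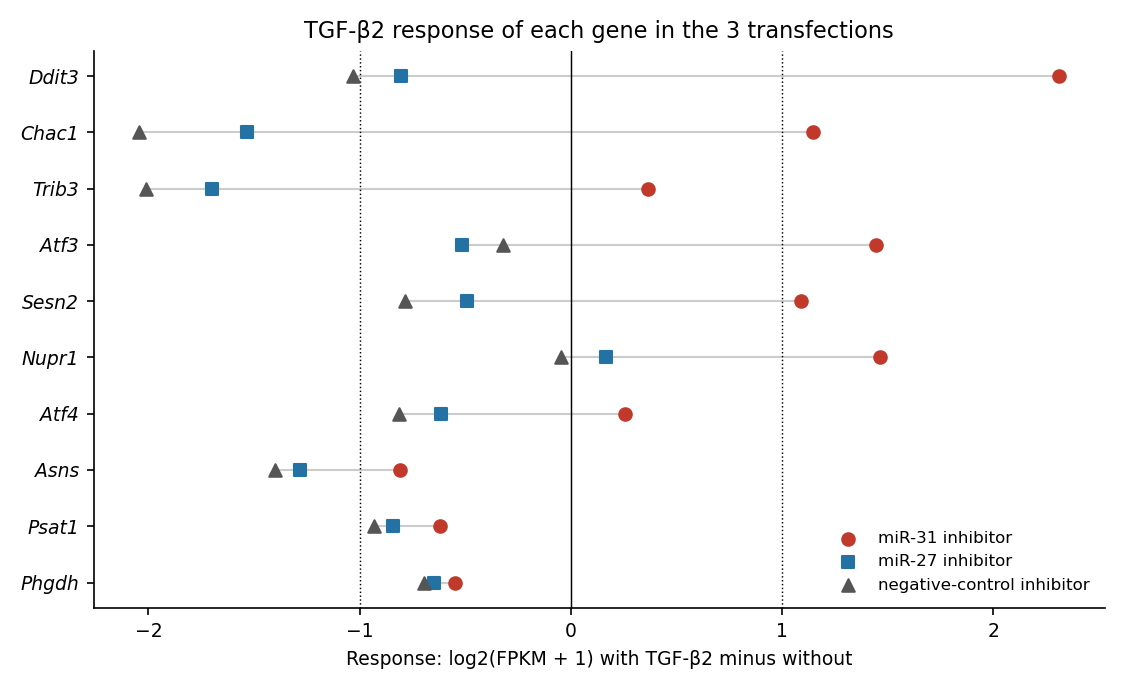
Response of each gene, as log2(FPKM + 1) with TGF-β2 minus without, in the 3 transfections, with dotted lines at a difference of 1 in either direction. The red circle of the miR-31 inhibitor is right of the other marks in all 10 rows, from a gap of 0.10 for Phgdh to 3.11 for Ddit3.

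Counted at a difference of at least 1, the miR-31 transfection had 5 of the 10 genes higher with TGF-β2 (Ddit3, Atf3, Nupr1, Chac1 and Sesn2), where 2.65% of all genes tested were, and 0 lower (2.43% of all). The miR-27 transfection had 0 higher (2.43% of all) and 3 lower, Trib3, Asns and Chac1 (2.04% of all). The negative control had 0 higher (2.62% of all) and 4 lower, these 3 and Ddit3 (2.12% of all). Since the genes were chosen with this contrast known, nothing is read from these shares.

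The response with the miR-31 inhibitor lay above both other responses in all 10 genes, as it did in 33.6% of all genes tested. It lay at least 1 above both in 6 of the 10, Ddit3, Atf3, Nupr1, Trib3, Chac1 and Sesn2, and in 0.288% of all genes tested, 34 in number. Nupr1, at 1.30, was just inside this limit and Atf4, at 0.87, just outside it. The excess was 0.47 for Asns, 0.22 for Psat1 and 0.10 for Phgdh. When all tested genes were ranked by the miR-31 response minus the mean of the other responses, Ddit3 was at rank 12 and Chac1 at 14. Trib3 followed at 19, Atf3 at 20, Sesn2 at 23, Nupr1 at 28 and Atf4 at 53, whereas Asns was at 178, Psat1 at 766 and Phgdh at 2176. With a separate response for each inhibitor no residual degrees of freedom are left, so the differences between transfections carry no test.

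**Figure D3:**
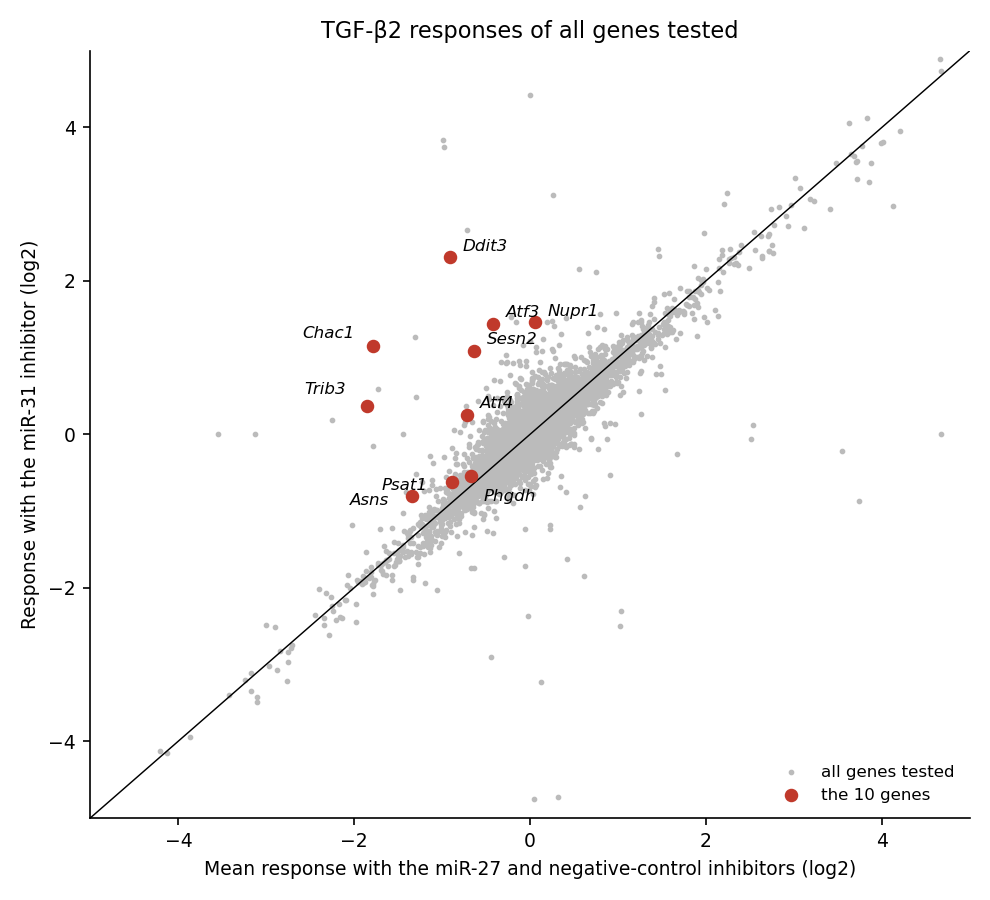
Each grey point is 1 of the 11816 genes tested, at its mean response with the miR-27 and negative-control inhibitors (x, log2) and its response with the miR-31 inhibitor (y, log2), with the line of equality. Red points are the 10 genes, all above the line (43.9% of all genes tested are), and 17 genes lie outside the plotted range of 5 in either direction.

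Between the miR-31 and miR-27 libraries the gap lay in the state with TGF-β2. Without TGF-β2, the miR-31 library differed from the miR-27 library by -0.24 for Ddit3 and by no more than 0.09 in size for the other 9 genes, with 0 of the 10 higher by at least 1 (0.161% of all genes tested). With TGF-β2, the miR-31 library was higher than the miR-27 library in all 10 genes (46.9% of all genes tested), by a median of 1.38. Of the 10, 6 were higher by at least 1 (0.305% of all). The ratio was 7.48 for Ddit3, 6.63 for Chac1, 4.39 for Trib3, 4.04 for Atf3, 3.46 for Sesn2 and 2.32 for Nupr1. It was 1.15 for Psat1 and 1.06 for Phgdh, so the libraries were close for the serine genes in both states.

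The negative-control library was the low one in both states. Without TGF-β2 all 10 genes were higher with the miR-31 inhibitor than in the negative control (55.2% of all genes tested were), by a median of 0.38. All 10 were also higher in the miR-27 library (52.0% of all), by a median of 0.38, and these comparisons share the negative-control library. The largest were Trib3 with the miR-31 inhibitor (0.62) and Ddit3 with the miR-27 inhibitor (0.76), and Atf3 had the smallest (0.02 and 0.01). None of the 10 reached a difference of 1 with either inhibitor (0.0846% of all genes tested did with miR-31 inhibited and 0.118% with miR-27 inhibited). With TGF-β2, 7 of the 10 were higher by at least 1 with the miR-31 inhibitor (0.432% of all), all but Asns, Psat1 and Phgdh, and 1, Chac1, with the miR-27 inhibitor (0.11% of all). The median difference from the negative control was then 1.92 for the miR-31 library, against 0.55 for the miR-27 library, where Atf3 was lower than the control, at -0.18.

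**Figure D4:**
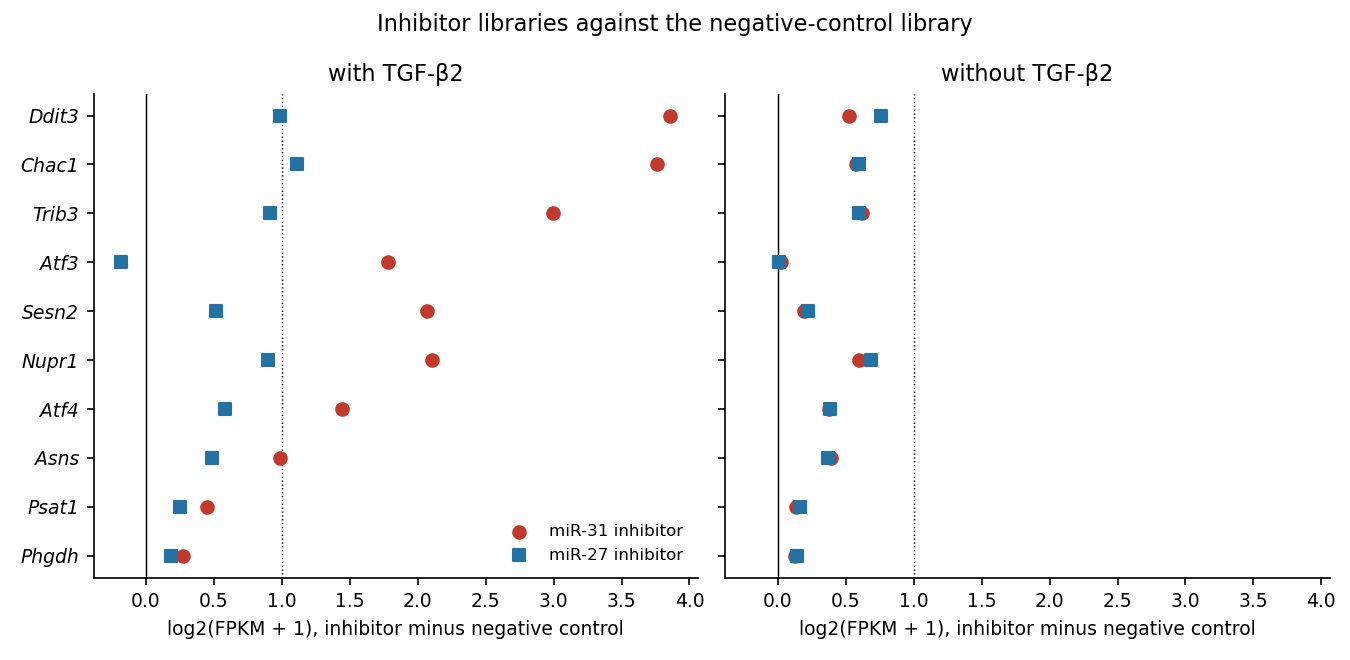
Difference in log2(FPKM + 1) between an inhibitor library and the negative-control library in the same state, with TGF-β2 (left panel) and without it (right panel); red circles are the miR-31 inhibitor, blue squares the miR-27 inhibitor, and the dotted line marks 1. In the right panel the marks of both inhibitors nearly coincide, between 0.01 and 0.76, while in the left panel the red circles reach 3.86 for Ddit3.

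A limma fit with inhibitor and TGF-β2 as additive terms over the 6 libraries called 3 of the 10 genes lower with TGF-β2 (27.5% of all genes tested), namely Asns, Psat1 and Phgdh, and 0 higher (22.7% of all). Their estimates were -1.16 ± 0.12 for Asns, -0.80 ± 0.07 for Psat1 and -0.63 ± 0.05 for Phgdh (SE of the fit). In the same limma fit on the 4 libraries of the miR-27 and negative-control transfections, 9 of the 10 were called lower (27.7% of all) and 0 higher (23.8% of all), Nupr1 being the exception at 0.06 ± 0.07. There the estimates ran to -1.85 ± 0.08 for Trib3 and -1.79 ± 0.12 for Chac1. The count of 9 was 4 when genes with low values were not filtered out. Without either negative-control library the 6-library fit called 1640 of all genes higher and 1926 lower, and without either miR-27 library 2090 lower, in place of 2677 and 3249. These fits are on the contrast known when the genes were chosen, so the counts are a description, and the 4-library fit has 1 residual degree of freedom. With 1 library per group, the SE rests on how far the TGF-β2 response differs between transfections, not on scatter between replicates. For Ddit3 it was 0.69 over the 6 libraries and 0.07 over the 4.

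For the miR-31 inhibitor over both states, the additive limma fit called 0 of the 10 genes (0.0339% of all genes tested, 4 in number), with 7 of the 10 and 2135 of all genes at an unadjusted p under 0.05. The estimates were 2.19 ± 0.85 for Ddit3 and 2.17 ± 0.78 for Chac1, and this fit assumes an inhibitor difference of equal size in both states. Left without the untreated miR-31 library, so that the estimate rests on the miR-31 library with TGF-β2 alone, the fit called 9 of the 10 and 1137 genes in all. It called 13 genes in all without the negative control with TGF-β2 and 10 without the miR-31 library with TGF-β2. A lone library is then assumed to vary like the others.

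The 10 genes fell into patterns that graded into each other, described here by Pearson's r over the 6 libraries, which all genes share. Psat1 and Phgdh had r = 0.997, Asns and Psat1 0.987, and Ddit3 and Sesn2 0.990. Atf4, Trib3 and Chac1 lay between, with r of 0.985 for Atf4 with Trib3 and with Chac1. Ddit3 had r = 0.173 with Phgdh, and Nupr1 had r = -0.117 with it. The genes at the Ddit3 end had their highest value under miR-31 inhibition and TGF-β2, and so did Atf4, Trib3 and Chac1. In the genes at the Phgdh end every library with TGF-β2 lay under every library without it. How many of all genes tested had either pattern was not counted.

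Outside the 10 genes, those whose profile was most like the mean standardised profile of the 10 were Jdp2, Acot2, SAP2, Siah2, Myc, Slc1a4, Slc6a9 and LOC106740, out of 820 genes with a range of at least 1. Their r over the 6 libraries ran from 0.973 for Jdp2 to 0.927 for LOC106740, and 6 of these 8 were also among the 8 nearest with a pseudocount of 0.1. The mean profile averages genes as unlike as Ddit3 and Phgdh (r = 0.173), so it stands for neither end. The miR-31 responses of these 8 ran from -0.12 for Slc6a9 to 0.60 for Slc1a4, beside a median of 0.73 for the 10 genes. Jdp2, a bZIP repressor gene, was at 74.0, 45.0 and 31.9 FPKM with TGF-β2 under the miR-31, miR-27 and negative-control inhibitors, against 72.5, 70.2 and 62.9 FPKM without it. The transcription factor gene Myc was at 14.6, 9.03 and 6.53 FPKM with TGF-β2, against 12.8, 13.2 and 8.88 FPKM without it.

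In most of the wider pathway, too, the miR-31 response lay above the others, by less than in the 10 genes. Of 63 tested genes in 6 lists of ATF4 regulators, partners and reported targets, 8 rose (22.7% of all genes tested did) and 36 fell (57.1% of the 63, beside 27.5% of all genes tested) with TGF-β2 in the 6-library limma fit. Their median responses were -0.12, -0.35 and -0.37 with the miR-31, miR-27 and negative-control inhibitors. The miR-31 response lay above both others in 48 of the 63 (76.2%, beside 33.6% of all genes tested), and by at least 1 in Ppp1r15a and Slc7a11 (0.288% of all genes tested did). These shares of all genes are also the background of the counts in each single list. The lists were drawn up with earlier results of these data known, and no set test was run.

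Regulators of eIF2α showed little difference between transfections. Of 10 tested, 1 rose and 3 fell with TGF-β2, and the median of the miR-31 response minus the mean of the others was 0.01. The exception was Ppp1r15a, the stress-induced phosphatase subunit that restores translation, at 57.1, 28.7 and 21.3 FPKM with TGF-β2 under the miR-31, miR-27 and negative-control inhibitors, against 34.7, 37.2 and 26.6 FPKM without it. Next was Impact at 0.06, and the lowest were the kinase gene Eif2ak2 at -0.10 and the phosphatase subunit gene Ppp1r15b at -0.16. Of 7 bZIP partners, 2 rose and 1 fell (median difference 0.34), with Jdp2 at 0.82, Cebpg at 0.50, Nfe2l2 at -0.02 and Cebpd at -0.21.

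Most genes of amino acid synthesis fell with TGF-β2. Of 13 other genes of amino acid and one-carbon synthesis, 11 fell and 0 rose (median difference 0.31). Mthfd2, a mitochondrial folate enzyme gene, fell by 0.76 ± 0.16 (SE of the fit, limma adjusted p = 0.0161). Its difference between the miR-31 response and the others was 0.68, beside 0.58 for Gpt2 and -0.12 for Mthfd1. Of 10 amino acid transporters, 1 rose and 5 fell (median difference 0.51). Slc7a11, the cystine importer, was at 14.7, 6.68 and 3.96 FPKM with TGF-β2 under the miR-31, miR-27 and negative-control inhibitors, against 6.01, 7.54 and 3.96 FPKM without it. Slc1a4 had a difference of 1.10, Slc7a6 of 0.09 and Slc1a5 of -0.12.

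Of 12 aminoacyl-tRNA synthetases reported as ATF4 targets, 11 fell and 0 rose, and the miR-31 response lay above both others in 12 of 12, by little. Cars had the largest difference, at 0.54, followed by Aars at 0.44, and Wars (0.11) and Mars (0.07) the smallest. Of 12 other reported ATF4 or CHOP targets, 4 rose and 5 fell, with a median difference of 0.29. Besides Ppp1r15a, Ddit4, an mTORC1 inhibitor gene, differed most, at 27.3, 14.3 and 11.5 FPKM with TGF-β2 and the miR-31, miR-27 and negative-control inhibitors, against 2.18, 2.32 and 1.58 FPKM without it. Cdkn1a (-0.21) and the pro-apoptotic Bcl2l11 (-0.46), a reported CHOP target, had the lowest differences.

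Genes of other stress responses moved in the same library to different degrees. Of 15 ER chaperone and XBP1/ATF6 genes, 9 rose and 1 fell with TGF-β2. The miR-31 response lay above both others in 15 of the 15 (33.6% of all genes tested). In 5 it did so by at least 1 (0.288% of all), namely Hspa5, Dnajb9, Sdf2l1, Herpud1 and Creld2. The median difference was 0.52, beside 0.24 for the 63 genes of the ATF4 lists. Herpud1, which serves the degradation of misfolded ER proteins, was at 218, 31.2 and 21.5 FPKM with TGF-β2 and the miR-31, miR-27 and negative-control inhibitors, against 24.1, 24.8 and 18.4 FPKM without it. Sdf2l1 had a difference of 1.28, Sel1l of 0.30 and Edem1 of 0.14. The median response of this list was 0.99, 0.28 and 0.30, so it was positive in every transfection, unlike that of the 10 genes. Of 8 NRF2 antioxidant genes 2 rose and 1 fell (median difference 0.17), with Hmox1 at 0.75, Srxn1 at 0.44, Nqo1 at -0.06 and Prdx1 at -0.20. Of 8 heat shock genes 0 rose and 4 fell (median difference -0.01), with Hspa1b at 1.75, Hsph1 at 0.21, Hspe1 at -0.09 and Hspb1 at -0.10. Of 12 housekeeping genes 1 rose and 2 fell, with a median difference of -0.11. The part of the ER stress genes in the shift of the 10 genes was not tested.

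**Figure D5:**
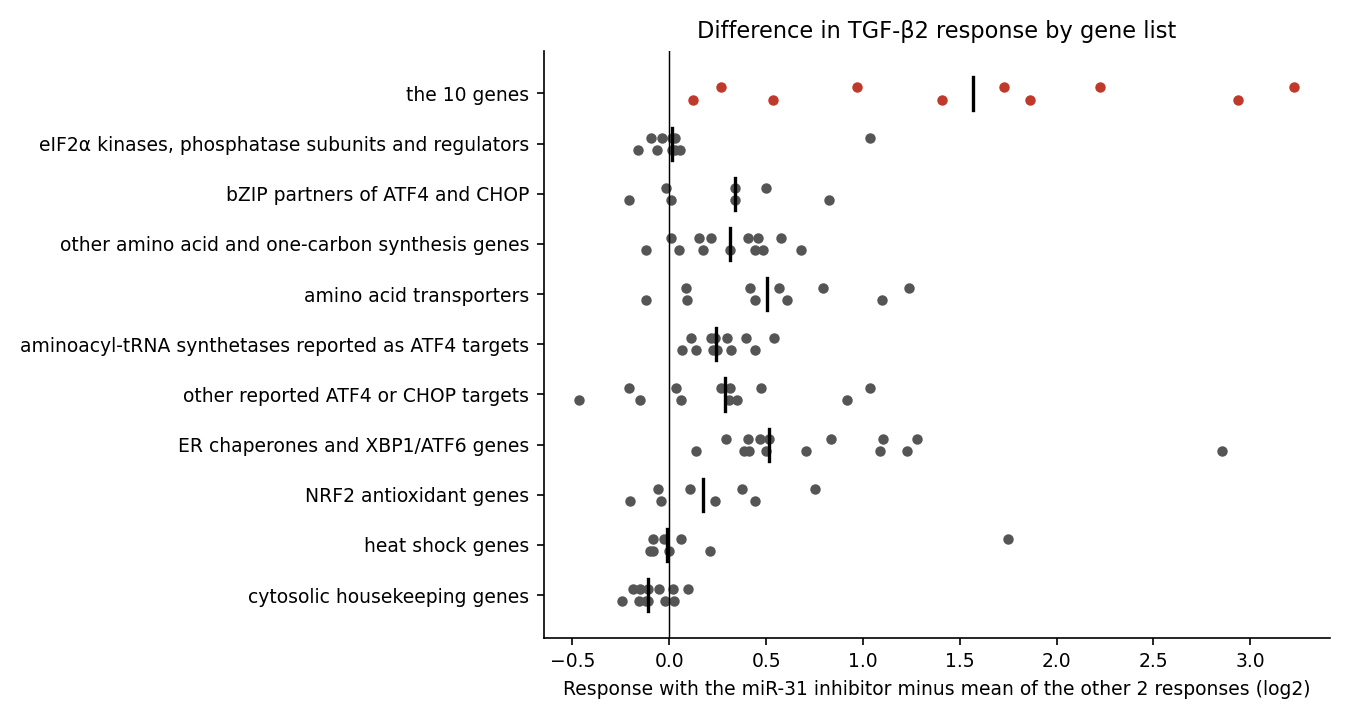
Response with the miR-31 inhibitor minus the mean of the other 2 responses (log2) for each tested gene, by list, with the median of each list as a black bar and the 10 genes in red. The median is 1.57 for the 10 genes, 0.52 for the ER chaperone and XBP1/ATF6 list and 0.01 for the regulators of eIF2α.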

How the data were processed

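The authors deposited 1 table of FPKM values with 29955 gene names and a column for each of the 6 libraries, matched to the samples by title. Build mm9, Cufflinks 2.1.1 and TopHat2 2.0.9 are given in the submitters' processing notes. Annotation, strand setting and filters are not given in the sources used here. Per the labels' protocols, rRNA was depleted and directional libraries were sequenced. Listed starts were taken to count from 0, since end minus start equalled the RefSeq gene length for 5685 of 19389 names matched by symbol (384 for a count from 1).

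Values were used on the log2(FPKM + 1) scale, which understates the change of low genes. Names with a mean of at least 1 FPKM were tested, 11816 in number, with limma 3.58.1 in R 4.3.3, an additive model of inhibitor and TGF-β2, Benjamini-Hochberg adjustment over all of them and a threshold of 0.05. The 6-library fit had 2 residual degrees of freedom and was tested on simulated data. With 1 library per group, its residual is the difference in TGF-β2 response between transfections, not scatter between replicates. Its SEs and p-values rest on that difference. Pairs of libraries have no test and were counted at a log2 difference of 1. Alternatives were a pseudocount of 0.1, upper-quartile scaling, no filter, trend and robust options, no inhibitor term, and leaving out each library. Sequences came from RefSeq (GRCm38.p6) and 3′ UTRs from GENCODE vM21 (GRCm38), matched by symbol, whereas the deposited places are mm9. Depth is unknown, so no counting interval is given.

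The 10 genes and the lists were chosen with earlier results of these data known. Besides the 10 genes, the named genes were the pair with the largest and the pair with the smallest difference between the miR-31 response and the mean of the others in each list, leaving out names listed at 0 in any library, and the 8 genes most like the 10. Some genes that this rule names are not reported here.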

Additional observations from a re-analysis of the deposited data

Results flagged for a closer look

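The direction of the TGF-β2 response was opposite in a pair of transfections for 7 of the 10 genes, each with 1 library per group, so none of these differences was tested. The share of all genes tested with opposite directions was not counted, and median responses over all genes were near 0, so nothing is read from the count. Under the miR-31 inhibitor minus the negative control, the difference in response (log2) was 3.34 for Ddit3, 3.19 for Chac1, 2.38 for Trib3, 1.87 for Sesn2, 1.76 for Atf3, 1.51 for Nupr1 and 1.07 for Atf4. Under the miR-31 minus the miR-27 inhibitor it was 3.11 for Ddit3, 2.68 for Chac1, 2.06 for Trib3, 1.96 for Atf3, 1.58 for Sesn2 and 0.87 for Atf4. Nupr1 also differed in direction between the miR-27 inhibitor and the negative control, by 0.21. The direction of Nupr1 in the negative control turned with upper-quartile scaling, to 0.01 in place of -0.04, so that Nupr1 was then higher with TGF-β2 in all 3 transfections and 6 genes had opposite directions. Asns, Psat1 and Phgdh were lower with TGF-β2 in all 3 transfections.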

How the results depend on the processing

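The 90 recomputed responses of single genes shifted by less than 0.585 on the log2 scale (1.5 times), and 1 of them changed sign: with upper-quartile scaling the response of Nupr1 in the negative control was 0.01 in place of -0.04. All 10 genes pass the filter on low values, so their responses without it were the same by construction. Upper-quartile scaling moves all genes of a transfection by nearly the same amount. Little stability of single genes can be read from these settings. Without the inhibitor term, which pairs the libraries of a transfection, 3 of the 10 genes fell and 0 rose, with 2483 of all genes higher and 2967 lower. Of 86 recomputed counts and medians, without those that leave out a library, 80 stayed within 1.5 times. Among these, the counts and medians taken from the responses and differences of the 10 genes without the filter could not change. With a pseudocount of 0.1, 2 genes and not 1 were higher by at least 1 with the miR-27 inhibitor and TGF-β2. With no filter on low values, the fit without the miR-31 transfection called 4 of the 10 genes lower and 1331 genes higher and 1313 lower in all, and the miR-31 inhibitor fit called 0 genes; trend and robust options gave that fit 13 genes. Leaving out each library in turn, 3 to 9 of the 10 genes fell and 0 rose with TGF-β2, with 1640 to 2815 of all genes higher and 1926 to 3272 lower. The 9 came without either miR-31 library, which leaves the same 4 libraries to estimate TGF-β2. The lowest totals came without either negative-control library, and the lower calls were 2090 without either miR-27 library. For the miR-31 inhibitor, 0 to 9 of the 10 and 3 to 1137 of all genes were called, the highest without the untreated miR-31 library; the totals were 13 without the negative control with TGF-β2 and 10 without the miR-31 library with TGF-β2. With 1 library per condition, the high stress genes of the miR-31 library with TGF-β2 cannot be told apart from a feature of that single culture or library.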
